A study of Xenopus tropicalis with 4 samples.

Results

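Signals of the transforming growth factor beta superfamily pattern the early frog embryo. Secreted ligands of the BMP, GDF, activin and TGF-beta kinds bring together type II and type I receptor kinases, which phosphorylate receptor-regulated Smad proteins. These join a common Smad, Smad4, and enter the nucleus, while inhibitory Smads, secreted antagonists and ubiquitin ligases hold the pathway back. In Xenopus, BMP signals specify ventral fates and epidermis, and activin and nodal signals induce mesoderm and endoderm.

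The genes described here are 57 of the 21749 protein-coding genes that RefSeq annotates on the 10 chromosomes of the Xenopus tropicalis build xenTr10. They were chosen by symbol: all bmp, bmpr, acvr, smad, gdf and tgfb genes of that form, plus lefty, bambi, szl, tsku, tll1, smurf1, smurf2 and skil. They comprise 22 ligands, 12 type I and type II receptors, 2 co-receptors, 9 Smads, 4 secreted or membrane inhibitors, 2 chordin proteases, 2 ubiquitin ligases, 1 Smad corepressor and 3 genes outside these roles.

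Binding was measured by chromatin immunoprecipitation and sequencing in whole embryos at stage 8, a blastula stage. The 2 E2F1 libraries, made with an HA antibody, came from embryos labelled E2F1 Rescue that had received both E2F1 mRNA and MO. The 2 OTX1 libraries, made with a Myc-Tag antibody, came from embryos labelled OTX1 Rescue that had received both OTX1 mRNA and MO. The labels neither spell out MO nor name its target. The antibodies recognise tags, so the maps show injected protein and not the embryo's own. The libraries are of whole embryos and do not show in which cells a factor was bound. Nothing in the labels says that replicates were separate batches of embryos, so their spread may be technical.

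The E2F1 lists held 16770 and 20385 peaks and the OTX1 lists 27755 and 29098, with a median of 16 and 16 fragments at the summit for E2F1 and 16 and 15 for OTX1. A region is called reproducible when peaks of both lists of a factor overlap by at least 1 bp, which gave 13216 E2F1 and 17768 OTX1 regions. A region counts for a gene when its summit lies within 1 kb, or in a wider count 5 kb, of either annotated end of the gene. The gene table used gives no strand or exons, so a gene's start cannot be told from its far end here. The fold printed for a peak is the authors' own, its summit signal over the local background used in calling that library's peaks.

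Among the 57 members, E2F1 lay at the ends of most receptor and Smad genes and of the 4 inhibitor genes included by name. It lay at few ligand genes, and OTX1 lay at few gene ends in any role. E2F1 regions lay within 1 kb of an end at 24 of 57 members (42.1%), against 34.9% of all protein-coding genes. OTX1 regions lay there at 5 of 57 members (8.77%), against 7.18% of all genes. For the members as a whole, both shares are near those of all genes. The roles differed more: E2F1 was there at 2 of 22 ligands (9.09%), 8 of 12 type I and type II receptors (66.7%), 5 of 9 Smads (55.6%) and 4 of 4 secreted or membrane inhibitors. Of the 35 members that are not ligands, 22 (62.9%) carried it. No test of these role shares was made, since the members were chosen with earlier results of these data known.

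The contrast between ligands and the other roles was present in each E2F1 list taken alone. Ligands had a peak within 1 kb in 3 and 4 of 22 cases in replicates 1 and 2, and receptors in 9 and 9 of 12 cases. Smads had one in 5 and 7 of 9 cases. In the same lists 37.4% and 41.5% of all genes had one. Without peaks in the highest 10% of local background, 4 of 12 receptors, 2 of 9 Smads and 2 of 22 ligands were left, against 28.9% of all genes. Under that setting the receptors were near the share of all genes and the Smads below it.

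**Figure D1:**
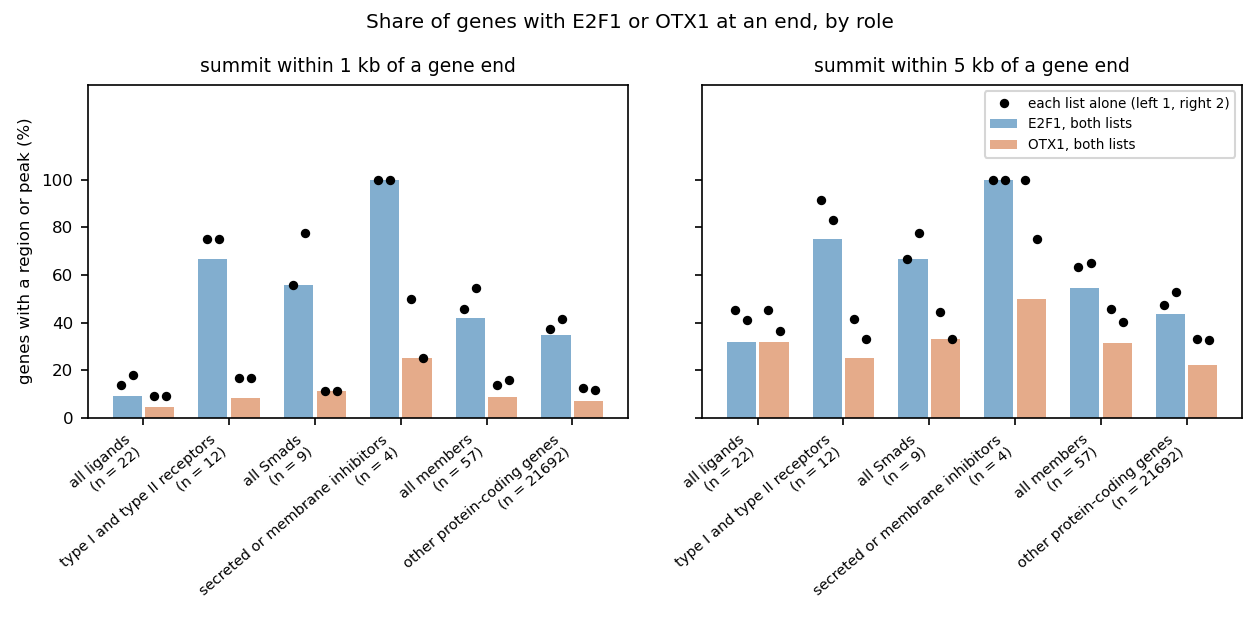
Percent of genes with a summit within 1 kb (left) or 5 kb (right) of a gene end, by role; bars show reproducible regions of E2F1 (blue) and OTX1 (orange), and black points each list alone. At 1 kb the E2F1 bar is 9.09% for ligands and 66.7% for receptors, against 34.9% for other protein-coding genes.

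Library by library, 45.6% and 54.4% of members had an E2F1 peak within 1 kb of an end and 14% and 15.8% had an OTX1 peak, so the lists of the factors did not overlap. Taking every protein-coding gene, the share with such a peak was 37.4% (replicate 1) and 41.5% (replicate 2) for E2F1. For OTX1 it was 12.6% and 11.8%, so a gap between the factors at gene ends was not confined to the members. A peak there without a reproducible region was found at 9 of 57 members for E2F1, against 9.07% of all genes, and at 7 for OTX1, against 9.57%. The mean was 50% ± 6.2 for E2F1 and 14.9% ± 1.24 for OTX1 (SD, n = 2 each), a difference of 35.1 percentage points. The two-sided exact permutation test over libraries gave p = 0.333, the smallest that 2 against 2 libraries allow. Antibody and calling threshold also differed between the factors, since E2F1 peaks reached q-values of 0.0492 and 0.0470 and OTX1 peaks stopped at 0.00999 and 0.00977. The antibody cannot be told apart from the factor itself. With a −log10 q minimum of 5 in all lists the difference was 32.5 points, and with lists of equal size 40.4 points. Whether the calling threshold bears on it was not tested beyond these settings.

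Within 5 kb of an end, 31 of 57 members (54.4%) had an E2F1 region, against 43.6% of all genes, and 18 (31.6%) had an OTX1 region, against 22.0%. Both factors were within 5 kb of 10 members (17.5%), against 13.3% of all genes. That count rested on the joining of the lists: with 1 list of each factor it was 18 members with replicate 1 and 18 with replicate 2, against 21.2% and 23.0% of all genes. Neither was within 5 kb of 18 of 57 members, while 47.7% of all genes had neither. The 18 were 11 of the 22 ligands, near the share of all genes, and 7 of the 35 other members. The median distance from a member's end to the nearest region was 3418 bp for E2F1 and 18680 bp for OTX1, against 9505 bp and 20589 bp for other genes.

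**Figure D2:**
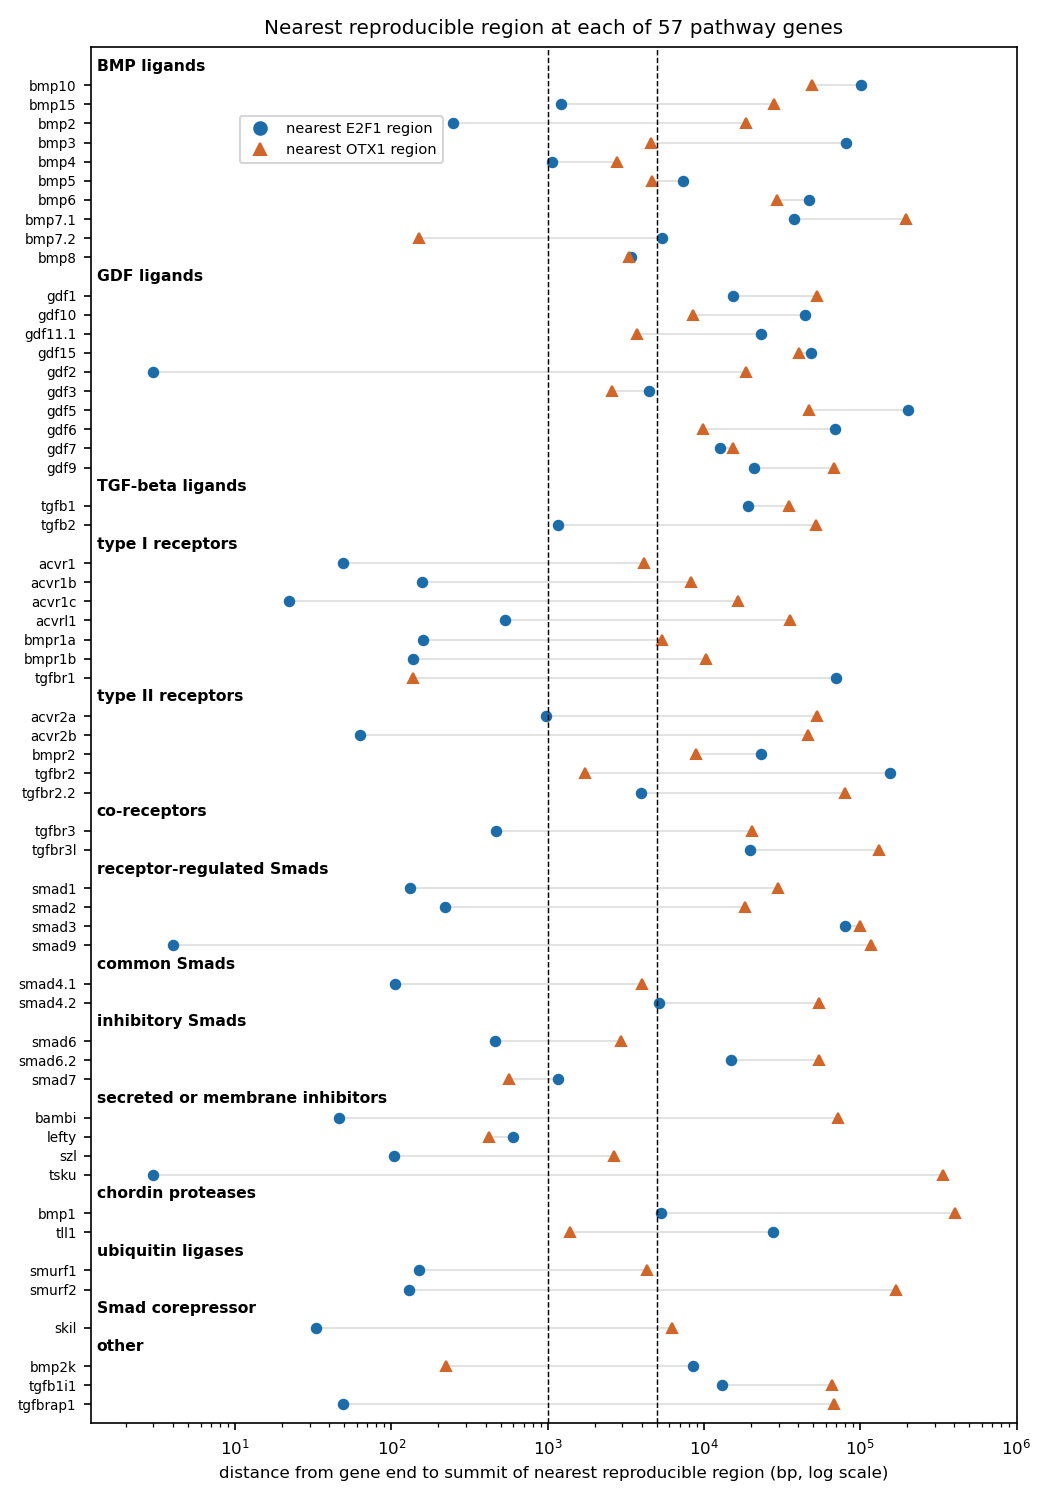
Distance from the nearest gene end to the summit of the nearest reproducible E2F1 region (circles) and OTX1 region (triangles) for each of the 57 members, grouped by role, on a log scale; dashed lines mark 1 kb and 5 kb. Circles of type I receptors and inhibitors lie left of the 1 kb line with 1 exception, tgfbr1, and most ligand symbols lie right of it.

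Among the BMP ligands, bmp2, a ventralising signal, was the only one of 10 with an E2F1 region within 1 kb. Its summit lay 248 bp from the gene's lower-numbered end (chromosome 5, 25392796 to 25393857), with folds of 4.05 and 4.73 in replicates 1 and 2. These rested on 15 and 19 fragments, and the region did not pass a −log10 q minimum of 5 or a reciprocal overlap of 50%. At bmp4, the main ventral BMP of the frog, an E2F1 region lay just outside the limit, at 1068 bp, where the folds were 3.74 and 3.49. A second one lay inside the gene, 2735 bp from the same end, with folds of 4.2 and 4.76, and overlapped the OTX1 region there, whose folds were 4.07 and 5.31. The summits of this overlapping pair were 23 bp apart. Once peaks in the highest 10% of local background were removed, no region of either factor was left within 5 kb of bmp4.

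OTX1 was within 1 kb of 1 ligand gene, bmp7.2, a copy of the BMP7 gene. Its summit was 151 bp outside the gene (chromosome 3, 98668560 to 98668921), and the folds were 4.12 and 4.75. The other copy, bmp7.1, had its nearest E2F1 region 37532 bp and its nearest OTX1 region 195389 bp away. At bmp8 the factors' regions overlapped inside the gene, 3418 bp from the end for E2F1 (8.07 and 6.95) and 3325 bp for OTX1 (4.82 and 5.93). OTX1 alone lay within 5 kb of bmp3 (5.03 and 5.41) and bmp5 (4.74 and 3.97). The bmp5 region was lost with lists of equal size and without the highest 10% of local background. An E2F1 region 1212 bp from bmp15, known in mammals as an oocyte BMP, with folds of 4.90 and 8.85, lay nearer to the ribosomal protein gene rps4x, 141 bp from its end. Neither factor had a region within 5 kb of bmp6, bmp7.1 or bmp10.

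Of the 10 GDF ligands, gdf2, known in mammals as a ligand of the endothelial receptor that acvrl1 encodes, had an E2F1 region with its summit 3 bp from the end (chromosome 7, 61311730 to 61312096) and folds of 6.92 and 6.48. None had an OTX1 region within 1 kb. At gdf3, known in Xenopus as the mesoderm inducer derriere, the OTX1 region lay 2591 bp inside the gene (5.43 and 7.93). The E2F1 region lay 4422 bp inside it (5.75 and 5.55). With the highest 10% of local background removed, no OTX1 region was left within 5 kb of gdf3. Its neighbour gdf1, known in Xenopus as the maternal signal Vg1, had no region of either factor within 5 kb. OTX1 also lay 3740 bp outside gdf11.1 (4.86 and 7.56). Of the TGF-beta ligands, tgfb2 had an E2F1 region 1165 bp from an end (4.98 and 4.55) and tgfb1 had none within 5 kb. The tgfb2 region did not pass a −log10 q minimum of 5 or a reciprocal overlap of 50%. The remaining GDF genes with neither factor within 5 kb were gdf5, gdf6, gdf7, gdf9, gdf10 and gdf15.

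With the summit as the point measured, ligands had few E2F1 regions at 1 kb, and more were close to the limit. The members just inside it were acvr2a at 968 bp and lefty at 597 bp, and those just outside were bmp4 at 1068 bp, tgfb2 at 1165 bp, smad7 at 1172 bp and bmp15 at 1212 bp. With the nearest edge of the region in place of the summit, 5 ligands counted. Edges raised the count of all members too, from 24 to 28, and the share of all genes was not counted with edges. Within 5 kb, 7 of 22 ligands (31.8%) had E2F1, against 43.6% of all genes, and 7 (31.8%) had OTX1, against 22.0%. The genes bmp4, bmp8 and gdf3 were in both counts.

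**Figure D3:**
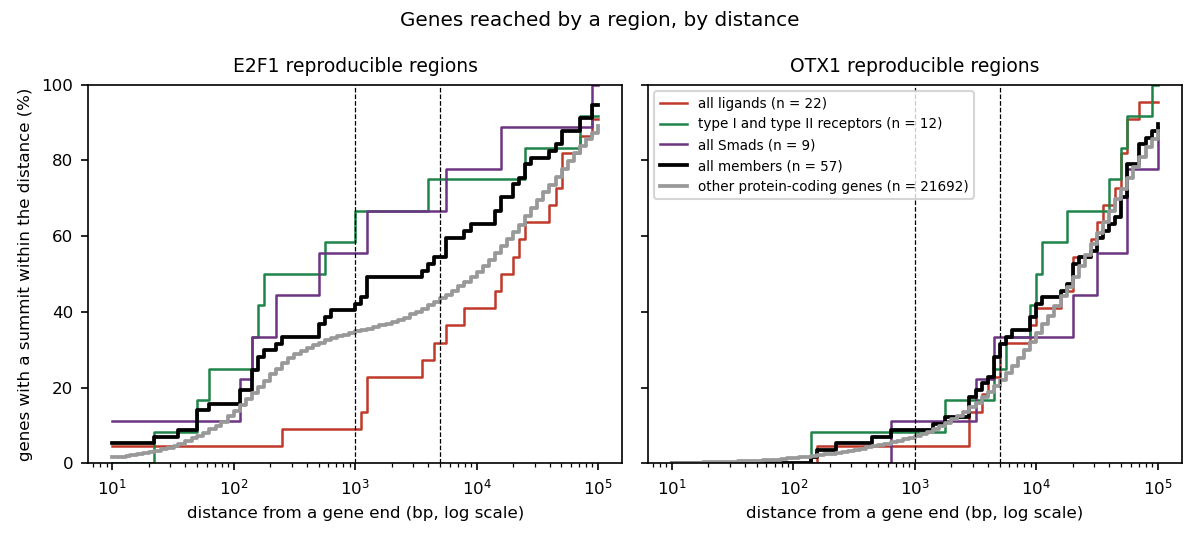
Percent of genes with a reproducible E2F1 (left) or OTX1 (right) summit within the distance on the x axis (bp, log scale), for ligands, receptors, Smads, all members and other protein-coding genes. For E2F1 the ligand line stays below the line of other genes at 1 kb, where it is at 9.09%, and the receptor line is at 66.7%; for OTX1 the lines of the roles and of other genes run close together up to 5 kb.

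E2F1 covered an end of 6 of the 7 type I receptor genes, which encode the kinases that phosphorylate Smads. The highest fold was at acvr1b, a receptor for activin and nodal, with 7.57 and 8.49 at a summit 157 bp from the end (chromosome 2, 135122153 to 135122988). The relative acvr1c had 5.31 and 6.74 at 22 bp. The BMP receptors followed, with 5.24 and 6.99 at bmpr1a (160 bp), 4.90 and 6.58 at bmpr1b (138 bp) and 4.70 and 5.90 at acvr1 (49 bp). The bmpr1b region was lost under a −log10 q minimum of 5. Those at acvr1, acvr1b and bmpr1a were lost without peaks in the highest 10% of local background. The region at acvrl1, with 4.76 and 4.77 at 532 bp, lay outside the gene and 446 bp from the end of its neighbour rcbtb2, so it was nearer to that gene.

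The type I receptor gene without a reproducible E2F1 region within 5 kb was tgfbr1, the receptor of TGF-beta. OTX1 lay 138 bp from the end (chromosome 6, 65896400 to 65896747) with folds of 3.74 and 4.88. This OTX1 region did not pass a −log10 q minimum of 5 and was also lost with lists of equal size and with a reciprocal overlap of 50%. At tgfbr2, the type II receptor, OTX1 lay 1722 bp outside the gene with folds of 5.07 and 7.12, and E2F1 was again not reproducible. In single lists, E2F1 did have a peak at both genes: replicate 2 had one 65 bp from tgfbr1 with a fold of 4.68, and replicate 1 had one 55 bp from tgfbr2 with a fold of 5.51. The E2F1 calls at these receptors therefore rest on which list is read.

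The activin type II receptors carried strong E2F1 regions. At acvr2a the folds were 11.1 and 11.2 on 43 and 44 fragments, with the summit 968 bp outside the gene (chromosome 9, 77289585 to 77290268). At acvr2b they were 7.82 and 8.24 with the summit 63 bp inside. The acvr2b region, but not that at acvr2a, was lost without the highest 10% of local background. The copy tgfbr2.2 had an E2F1 region 3928 bp away with folds of 8.31 and 9.98, but its summit was 52 bp from the end of snx4, a gene of the sorting nexin family. The BMP type II receptor bmpr2 had neither factor within 5 kb. The co-receptor tgfbr3, betaglycan, had E2F1 at 469 bp (7.95 and 8.42), and tgfbr3l had neither factor within 5 kb.

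Among the Smads, smad4.1 had the highest E2F1 fold of all members. Its folds were 11.9 and 12.8, on 59 and 75 fragments, with the summit 106 bp inside the gene (chromosome 1, 205057753 to 205058627). The mean rank of this region was the 97.7th percentile of the peaks in its lists. It was nevertheless lost when peaks in the highest 10% of local background were removed. OTX1 lay 4008 bp outside the gene with folds of 6.88 and 5.44, which put it 629 bp from the end of elac1. The second copy, smad4.2, had no region of either factor within 5 kb, and its nearest E2F1 region lay at 5123 bp with folds of 10.1 and 10.5.

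E2F1 lay at 3 of the 4 receptor-regulated Smads, and OTX1 at none of them within 5 kb. At smad2, which carries activin and nodal signals, the folds were 6.68 and 8.96 at 220 bp. The BMP Smads smad9 and smad1 had 5.58 and 7.77 at 4 bp, and 5.15 and 5.77 at 131 bp. Of these, the smad1 region was lost without the highest 10% of local background. At smad3, the other activin Smad, the nearest reproducible E2F1 region was 80260 bp away, while replicate 2 alone had a peak at 315 bp with a fold of 4.77. The summit at smad9 was within a few bases of the gene's annotated end.

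The inhibitory Smads smad6 and smad7 carried both factors within 5 kb, and the copy smad6.2 carried neither. At smad6, which blocks BMP Smads, E2F1 lay at 461 bp (6.67 and 5.99) and OTX1 at 2958 bp (3.75 and 4.47). This OTX1 region was lost under a −log10 q minimum of 5, with lists of equal size and with a reciprocal overlap of 50%. At smad7, which blocks TGF-beta, activin and BMP signals, OTX1 was the nearer one, at 565 bp (4.75 and 7.16), and E2F1 lay at 1172 bp (4.43 and 4.23). Both smad7 summits were inside the gene and 607 bp apart, and the regions overlapped by 429 bp. A second E2F1 region lay deeper in smad7, at 3027 bp. Without the highest 10% of local background, no E2F1 region was left within 5 kb of smad6 or smad7.

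All 4 secreted or membrane inhibitors had an E2F1 region within 1 kb of an end. These 4 were included by name, and most of the antagonist genes outside the members had none there. Of all protein-coding genes, 34.9% had one. E2F1 lay within 1 kb of cer1, chrd.1, grem1 and crim1. It did not at nog, nog2, nog4, fst, fstl1, fstl3, chrdl1, chrdl2, dand5, twsg1, bmper or kcp. Of the 4 members, the highest fold was at lefty, a secreted inhibitor of nodal, with 9.88 and 9.70 at 597 bp (chromosome 5, 8257634 to 8258758). At tsku, which encodes the secreted protein Tsukushi, the folds were 6.94 and 8.30 at 3 bp. At szl, whose product Sizzled inhibits chordin proteases, they were 5.22 and 7.03 at 104 bp. The pseudoreceptor gene bambi was the lowest, with 4.36 and 3.74 at 46 bp. Its region was lost without the highest 10% of local background.

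OTX1 lay at lefty as well, 420 bp from the same end, with folds of 5.45 and 5.83. Of the 57 members, lefty was the only 1 with both factors within 1 kb. The same held at 951 of the 21692 other protein-coding genes, so this is not particular to lefty. The surroundings of lefty held more regions than those of any other member. Within the gene and 10 kb on each side there were 4 E2F1 and 6 OTX1 regions, and all 4 E2F1 regions overlapped an OTX1 region. The summits of these 4 pairs were 54, 177, 11 and 168 bp apart. An end of the neighbouring gene LOC116410872 lay 6762 bp from the E2F1 summit at 597 bp, beyond lefty's other end. The pairs on that side, with E2F1 summits 3655 and 9266 bp from lefty, were nearer to this neighbour. Regions here can count for both genes. Of all protein-coding genes, 9 (0.0414%) had 4 or more such overlapping regions in that span. The limit of 4 is lefty's own count, set after it was seen, so this share is a description only. Some regions near lefty were weak, with mean percentiles as low as 17.4 for E2F1 and 4.91 for OTX1. Its OTX1 region within 1 kb was lost without peaks in the highest 10% of local background. At szl the OTX1 region lay apart from E2F1, 2652 bp beyond the other end, with folds of 4.89 and 6.90. This szl region did not pass a reciprocal overlap of 50%.

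The ubiquitin ligase, Smad corepressor and chordin protease genes were split. Both ubiquitin ligase genes had E2F1 at an end: smurf2 with 11 and 12.1 at 129 bp (chromosome 10, 51426843 to 51427504), and smurf1 with 4.53 and 3.67 at 151 bp. The smurf1 region was weak and was lost with lists of equal size, under a −log10 q minimum of 5 and with a reciprocal overlap of 50%. OTX1 lay 4331 bp inside smurf1, with folds of 6.65 and 7.87. The Smad corepressor gene skil had E2F1 at 33 bp (5.84 and 6.98). The proteases that release BMPs from chordin had no E2F1 region within 5 kb, with the nearest to bmp1 at 5275 bp. For tll1, OTX1 lay at 1382 bp (3.65 and 4.02), a region lost under that −log10 q minimum and with lists of equal size.

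The symbol rule also took in 3 genes whose products are not core parts of the pathway. Tgfbrap1, a receptor-associated protein, had E2F1 at 49 bp (4.13 and 4.65), with the end of c2orf49 114 bp from the summit. This region did not pass a −log10 q minimum of 5 or a reciprocal overlap of 50%. Bmp2k, a kinase induced by BMP2, had OTX1 at 223 bp (4.01 and 4.1), which was lost under that minimum and with lists of equal size. Neither factor lay within 5 kb of tgfb1i1, which encodes a focal adhesion protein.

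**Figure D4:**
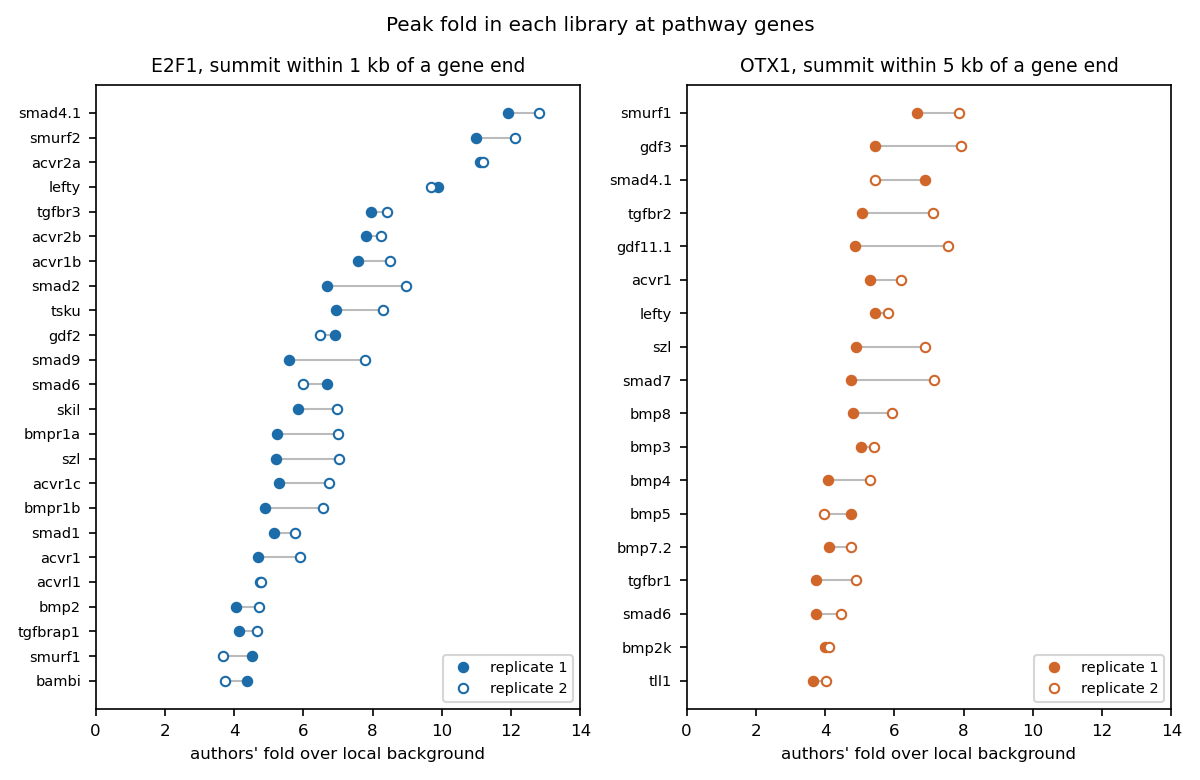
The authors' fold over local background in replicate 1 (filled) and replicate 2 (open) for the 24 members with an E2F1 region within 1 kb (left) and the 18 with an OTX1 region within 5 kb (right), for the region nearest to an end of each gene, ordered by mean percentile. The E2F1 folds run from 3.67 at smurf1 to 12.8 at smad4.1; the folds of these nearest OTX1 regions run from 3.65 at tll1 to 7.93 at gdf3.

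The E2F1 regions at members were placed and sized like those at other genes. Their summits were a median of 130 bp from the end, as in other genes with E2F1 within 1 kb (130 bp). Their median fold was 5.71 and 6.99 in replicates 1 and 2, against 6.21 and 6.77 for other genes, and their median percentile was 66.8, the same as for other genes. Replicate 2 had the higher fold at 19 of the 24 members, a larger share than the 61.3% of all E2F1 regions. Those include regions away from gene ends, and the share at the ends of other genes was not counted. Another gene's end was nearer to the summit at 1 of the 24 members, against 11.9% of the other genes. The 5 OTX1 regions within 1 kb ranked low, with a median percentile of 26.2 against 53.7 for other genes.

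Regions of the factors overlapped at receptor, ligand, Smad and inhibitor genes, in most cases away from the ends. Inside the members and within 10 kb of them there were 65 E2F1 and 53 OTX1 regions. Of the E2F1 regions 24 (36.9%) lay within 1 kb of an end, and of the OTX1 regions 5 (9.43%). These shares of regions were not counted for other genes, so they do not set the members apart. In this span 12 of 57 members had an overlapping pair, against 12.3% of all genes, and 6 of the 12 were receptors. Long genes have more room for regions. The median member was 26761 bp long and the median receptor 54961 bp, against 15485.5 bp for other genes. Whether length bears on these counts was not tested.

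The overlapping pair at acvr1 had its E2F1 summit 4754 bp and its OTX1 summit 4724 bp inside the gene, with folds of 5.18 and 6.80 for E2F1 and 6.92 and 8.14 for OTX1. At acvr1b the pair lay 8381 and 8296 bp inside, and OTX1 was higher there (9.66 and 8.50) than E2F1 was (5.32 and 6.73) on each factor's own scale of fold. Pairs also lay inside acvr1c, bmpr1b and bmpr2, and 5303 and 5412 bp outside bmpr1a. In the 16 pairs at members the summits were a median of 93.5 bp apart, and 9 pairs had them within 100 bp. The factors were precipitated from different embryos, so these pairs say nothing of both proteins sitting on 1 molecule.

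**Figure D5:**
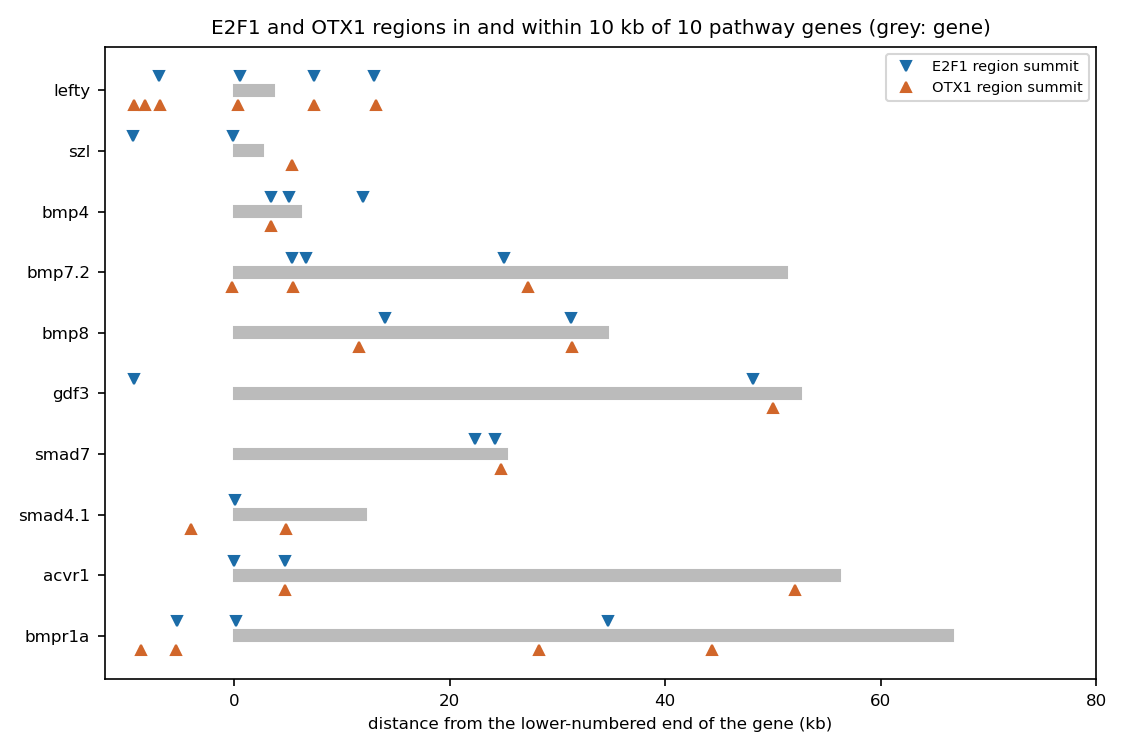
Summits of E2F1 regions (blue, above) and OTX1 regions (orange, below) in and within 10 kb of 10 members, as distance in kb from the gene's lower-numbered end; grey bars are the genes. At lefty 4 E2F1 summits each have an OTX1 summit beside them, and at acvr1 and bmp4 a pair lies inside the gene.

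A wider list, also chosen with earlier results of these data known, was counted in the same way without a test. It held 73 other genes of these pathways and their early targets. E2F1 lay within 1 kb of an end of 26 of them (35.6%), close to the 34.9% of all genes, and OTX1 of 11 (15.1%), against 7.18%. Within 5 kb the counts were 44 (60.3%) for E2F1, against 43.6%, and 27 (37.0%) for OTX1, against 22.0%. Of those within 1 kb, the E2F1 regions with the highest percentile were at the endoderm homeobox gene mix1 (9.51 and 9.35), the activin subunit gene inhbb (7.98 and 11.3), neo1, which encodes a receptor (7.68 and 10.1), the homeobox gene mixer (6.97 and 9.81) and trim33, a ubiquitin ligase gene (6.98 and 6.96). For OTX1, again within 1 kb, they were at mix1 (10.1 and 10.5), mixer (8.65 and 14.3), the organizer gene gsc (5.69 and 7.76) and a ventral pair, ventx2.2 (5.94 and 5.87) and ventx3.1 (6.31 and 6.43). Mix1 and mixer were named for both factors.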

How the data were processed

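Peaks were deposited as 1 list per library. Per the submitters' processing notes, the tools included MACS2 2.2.7.1, Bowtie2 2.4.5, deepTools and fastp, with no role stated, and the sources used here do not say whether a control library was used. The deposited score equals 10 times the deposited −log10 q-value with its decimals dropped. The authors' fold was taken as the fragments at the summit plus 1, over the local background plus 1. Whether that background came from the same library or from a control is not stated. The deposited −log10 p and fold were solved for the number of fragments at each summit, which came out whole to within 0.000236. Fragment numbers carry counting error, and other sources of spread between libraries were not estimated. OTX1 peak names carry xenTr10, and RefSeq gene positions are from UCB_Xtro_10.0; coordinates are 1-based.

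Overlapping peaks of both lists were joined, and took as summit that of whichever peak ranked higher by fold in its list. Named members are those with a region within 5 kb; folds are given for those within 1 kb, for the 10 of each factor with the highest mean percentile and for some others chosen after their values were seen. Of the wider pathway list, 5 genes per factor are named with folds, and antagonist genes are named for E2F1 within 1 kb. The members, roles and lists were chosen with earlier results of these data known. No sequence was used here, so the planned motif counts and the alternative with the 5′ end alone were not run. Alternatives were 1 list alone, a reciprocal overlap of 50%, a −log10 q of at least 5, equal lists of 16770 peaks, region edges, windows of 500 bp and 10 kb, and removal of the highest 10% of local background. Scripts used Python 3.11.15, pandas 2.3.3 and scipy 1.17.1 and were tested on simulated data.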

Additional observations from a re-analysis of the deposited data

How the results depend on the processing

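The counts of members with E2F1 within 1 kb and 5 kb, and with OTX1 within 5 kb, stayed within 1.5 times the reported count under all 8 alternatives each, with ranges of 16 to 31, 21 to 37 and 13 to 26. The OTX1 count within 1 kb, 5 members, was 3 at a −log10 q of at least 5, 3 with lists of equal size, and 8 to 9 in single lists. The count with both factors within 5 kb, 10 members, was 16 within 10 kb and 18 with 1 list of each factor, whichever replicate was left out. The difference in share between E2F1 and OTX1 libraries stayed positive under its 9 alternatives (21.1 to 40.4 points, 30.7 to 39.5 with 1 library left out). With a replicate block it was 35.1 points, from 31.6 and 38.6 within replicates 1 and 2. Over all genes the difference between replicates 1 and 2 at gene ends correlated at -0.00151 between the factors. This cannot tell whether replicates of the same number shared a batch, and the labels do not say. By role, E2F1 was then within 1 kb of 4 of 12 receptors and 2 of 9 Smads, against 28.9% of all genes without the highest 10% of local background. It was within 5 kb of 5 receptors and 2 Smads, against 36.3%. OTX1 was within 5 kb of 4 of 22 ligands, against 19.1%. Under this setting acvr1, acvr1b, acvr2b, bambi, bmpr1a, smad1, smad4.1 and smad6 lost their E2F1 regions within 1 kb, and lefty its OTX1 region. The cause was not tested. Of other settings, E2F1 at ligands within 1 kb ranged from 1 to 5 of 22. Small pileups limit the weak regions, where a call in 1 list can be missed in the other.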

Other observations

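Several members had a peak at an end in 1 list alone and are not counted among those with a reproducible region. Besides tgfbr1, tgfbr2 and smad3, E2F1 replicate 2 had a peak 10 bp from bmp3 (fold 4.42), 39 bp from bmp2k (5.81) and 296 bp from tll1 (6.48), and replicate 1 had one 165 bp from gdf10 (3.97). At tgfb2 and smad7 the peak of replicate 2 lay within 1 kb and the joined region just beyond it. OTX1 replicate 1 had a peak at acvrl1 (5.31), gdf10 (4.22) and bambi (4.19), and replicate 2 at tll1 (7.03), bmp15 (5.50), acvr2b (4.58) and tgfb1i1 (4.25). Of these peaks, 6 of 9 for E2F1 and 4 of 7 for OTX1 ranked below the 50th fold percentile of their list.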
